A study of Homo sapiens with 8 samples.

Results

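The FOS, JUN and EGR genes encode transcription factors of the immediate early response, and 9 of the 10 genes FOS, FOSB, FOSL1, FOSL2, JUN, JUNB, JUND, EGR1, EGR2 and EGR3 were measured here. EGR2 was not analysed here. Members were chosen by gene family, with earlier results of these data known. They are the probe sets annotated to exactly 1 of these genes: 33 of 45220 such probe sets, standing for 9 of 18231 genes. Each gene is represented by its brightest probe set, by the mean of the 8 arrays, and the others served as a check. RNA came from the human B-cell leukaemia line JVM13 and was hybridised to an Affymetrix human expression array. The groups were T286A cyclin D1 (n = 3), wild-type cyclin D1 (n = 3) and empty vector (n = 2, titled control). T286A is a highly stable form of the protein, and both forms were expressed from a doxycycline-inducible vector. All 3 groups, empty vector included, received 0.1 µg/mL doxycycline. The length of induction, the number of independent transductions or clones and the origin of the replicates are not given in the sources used here. The p-values therefore reflect only the variation among these arrays, and that may be technical.

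Immediate early genes are transcribed within minutes of a growth factor or antigen receptor signal, without new protein synthesis, and their mRNAs are short-lived. FOS family proteins pair with JUN family proteins through leucine zippers to form AP-1, which binds the sequence TGANTCA or the longer TGACNTCA. EGR proteins bind the GC-rich sequence GCGNGGGCG through zinc fingers. In B cells, signals of the antigen receptor reach these genes largely through the ERK MAP kinases, which act on ELK factors bound together with serum response factor (SRF) at CArG boxes, and through factors bound at cyclic AMP response elements, whose core is TGACG.

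The promoters of the 3 members whose levels differed most between the constructs are printed here because they hold copies of these motifs. Each covers the 250 bases before the annotated transcription start, from RefSeq on GRCh38.p14. Capitals mark, on either strand, matches to the response element core TGACG, the EGR motif GCGNGGGCG, the CArG box, or the short and long AP-1 motifs named above. A minus-strand copy of the core is printed as its reverse complement. FOS lies on the plus strand at chr14:75278578-75278827, JUN on the minus strand at chr1:58784048-58784297 and EGR1 on the plus strand at chr5:138465229-138465478.
FOS: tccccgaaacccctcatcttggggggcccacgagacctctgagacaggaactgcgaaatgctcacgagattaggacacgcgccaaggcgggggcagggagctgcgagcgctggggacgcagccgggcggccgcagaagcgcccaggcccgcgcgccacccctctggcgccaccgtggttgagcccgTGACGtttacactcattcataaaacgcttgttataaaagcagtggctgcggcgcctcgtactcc
JUN: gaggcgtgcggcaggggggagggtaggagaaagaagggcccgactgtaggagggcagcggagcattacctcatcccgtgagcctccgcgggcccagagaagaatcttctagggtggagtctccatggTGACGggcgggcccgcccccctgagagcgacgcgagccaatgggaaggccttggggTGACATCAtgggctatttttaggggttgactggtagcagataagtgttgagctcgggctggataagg
EGR1: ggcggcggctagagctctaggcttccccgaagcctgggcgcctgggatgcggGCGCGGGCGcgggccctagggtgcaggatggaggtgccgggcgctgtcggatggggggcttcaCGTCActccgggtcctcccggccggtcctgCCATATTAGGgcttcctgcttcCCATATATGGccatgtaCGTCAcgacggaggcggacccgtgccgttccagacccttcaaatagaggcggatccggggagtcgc
The table of promoters held 1 window each for FOS, FOSB, FOSL2, JUN, JUNB, JUND and EGR1, and FOSL1 was not in it. TGACG occurred in 7 of these 7 windows, against 21.2% of 35116 promoter windows of the same length from 27305 genes. In FOS, FOSB and FOSL2 a copy began 64, 60 and 66 bases upstream of the start. TGACNTCA, which contains TGACG where its N is G, occurred in JUN and JUND, as TGACATCA in JUN from 67 to 60 bases upstream, against 6.87% of windows. The CArG box occurred in EGR1 alone of the 7, with copies from 105 to 96 and from 83 to 74 bases upstream, against 1.16% of windows. GCGNGGGCG also occurred in EGR1 alone (8.41% of windows), and TGANTCA in 0 of 7 (6.57% of windows). Matches describe these letters only, and sequence farther upstream was not searched.

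The deposited values are log2 expression values from robust multi-array averaging (RMA), which equalises the distributions of the arrays at the probe level, so each difference is relative to the other genes. All differences are in log2 units ± SE from a limma fit of all 8 arrays over 18231 genes, and "called" means a two-sided p under 0.05 after Benjamini-Hochberg adjustment across those genes. CCND1, the induced gene, was at 11.25, 10.86 and 10.95 in the T286A arrays and at 10.98, 11.13 and 11.07 in the wild-type arrays, against 5.25 and 4.98 in empty vector. Of 7 measured B-cell markers, 7 lay above the median of all genes (5.94), while 7 of 8 markers each of T and NK cells, of myeloid cells and of epithelium or stroma lay below it. Wild-type replicate 2 stood apart. Over probe sets it correlated with the other wild-type arrays at 0.994 to 0.995, against 0.996 to 0.997 for all other pairs within a group. Its limma array weight was 0.513, against 0.850 to 1.44 in the other arrays. The difference between 3' and 5' control probe sets varied little over the arrays (0.077 to 0.11 for actin).

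FOS, JUN and EGR1 were lower with wild-type cyclin D1 than with empty vector, and higher with T286A than with wild type, while limma called 0 of the 9 genes in T286A against empty vector, where 0.532% of all genes were called. FOSB, FOSL1, FOSL2, JUNB, JUND and EGR3 were not called in any of these comparisons. The same wild-type arrays enter the comparison with empty vector and that with T286A. For any gene named here, its differences in those comparisons are therefore not independent results. In wild type against empty vector EGR1 was called in 17 of 17 alternative fits, FOS in 15 and JUN in 6. For a low bulk signal, fewer cells that transcribe a gene and less RNA per cell cannot be told apart.

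**Figure D1:**
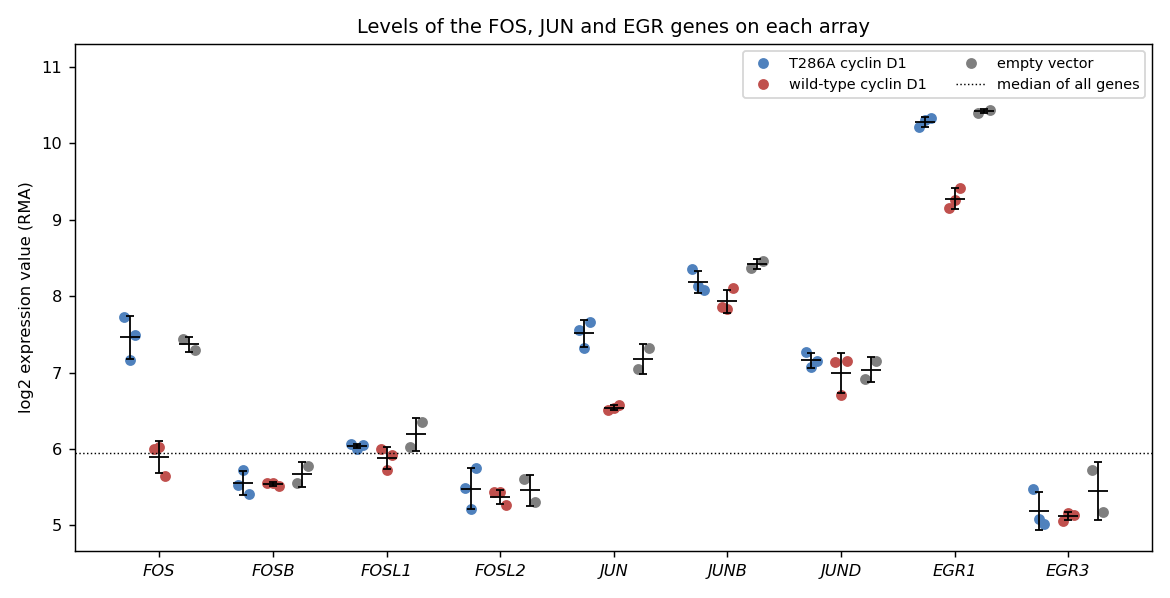
Log2 expression value of each gene on each array, grouped as T286A, wild type and empty vector from left to right; points are arrays, bars the mean ± SD, and the dotted line the median of all genes at 5.94. The 3 wild-type arrays lie below every other array for FOS, JUN and EGR1, while the groups of FOSB, FOSL2 and JUND overlap.

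FOS, the founding partner of AP-1, had values of 7.73, 7.17 and 7.49 in the T286A arrays and of 6.0, 6.03 and 5.65 in the wild-type arrays, against 7.44 and 7.30 in empty vector. All wild-type arrays were low, and the T286A and empty vector arrays overlapped. The means were 7.46 ± 0.28 with T286A and 5.89 ± 0.21 with wild type (SD, n = 3 each), against 7.37 ± 0.098 in empty vector (SD, n = 2). Wild type differed from empty vector by -1.48 ± 0.17, a level 2.79-fold lower (adjusted p = 0.00667 by limma). T286A was 1.57 ± 0.15 higher than wild type, which is 2.97-fold (adjusted p = 0.00403), and this was rank 1 of 18231 genes by rise. T286A minus empty vector was 0.09 ± 0.17 (95% interval -0.30 to 0.48, adjusted p = 0.901). The call against empty vector was lost without either empty vector replicate (adjusted p = 0.0845 without replicate 1 and 0.0764 without replicate 2), with differences of -1.41 and -1.55.

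The other 3 FOS probe sets ran the same way, with smaller differences. T286A minus wild type was positive in 4 of 4 FOS probe sets, from 0.70 to 1.57, and wild type minus empty vector was negative in 4 of 4, from -1.48 to -0.61. Fitted over all 45220 probe sets, 1 of the 4 was called in each comparison, the brightest. The second brightest was at 7.29, 6.60 and 7.42 with T286A and at 5.99, 5.67 and 6.08 with wild type, against 7.0 and 7.30 in empty vector, so its wild-type arrays were again the lowest. The dimmest had means of 5.23, 4.45 and 5.06 in T286A, wild type and empty vector.

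Among the FOS relatives the arrays of the groups lay close together. FOSB, a FOS paralog that also pairs with JUN proteins, averaged 5.55 ± 0.15 with T286A and 5.54 ± 0.024 with wild type (SD, n = 3 each), against 5.67 ± 0.16 in empty vector. Its T286A minus wild-type difference was 0.02 (95% interval -0.20 to 0.23, adjusted p = 0.961), an interval that does not reach the FOS difference of 1.57. FOSL1, encoding FRA-1, averaged 6.04 ± 0.032 with T286A and 5.88 ± 0.14 with wild type, against 6.19 ± 0.22 in empty vector. All its wild-type arrays, at 6.0, 5.73 and 5.92, lay below the empty vector arrays at 6.03 and 6.35, yet the difference of -0.31 ± 0.11 did not pass (adjusted p = 0.272). The 6 FOSL1 probe sets differed in direction: wild type minus empty vector was negative in 4 and positive in 2, from -0.38 to 0.12. T286A minus empty vector was likewise negative in 4 and positive in 2, from -0.15 to 0.49, and 0 of the 6 were called. The probe set at 0.49 read 5.40, 5.81 and 5.66 with T286A, against 5.01 and 5.26 in empty vector, opposite in direction to the brightest. FOSL2, encoding FRA-2, averaged 5.48 ± 0.27, 5.37 ± 0.095 and 5.46 ± 0.20 in T286A, wild type and empty vector, and its arrays overlapped in every comparison. The probe sets of FOSB (2) and FOSL2 (5) were also of both signs in each of the 3 comparisons between groups. The probe sets of FOSB and FOSL2 lay below the median of all genes, and the values carry no detection call.

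JUN, the AP-1 partner that can also pair with itself, was at 7.56, 7.32 and 7.66 in the T286A arrays and at 6.51, 6.53 and 6.58 in the wild-type arrays, against 7.04 and 7.32 in empty vector. The wild-type arrays were the lowest and the most alike, and T286A replicate 2 was at the level of the higher empty vector array. The means were 7.51 ± 0.17 with T286A and 6.54 ± 0.036 with wild type, against 7.18 ± 0.20 in empty vector. T286A was 0.97 ± 0.10 higher than wild type, or 1.96-fold (adjusted p = 0.00608, rank 18 by rise). Wild type minus empty vector was -0.64 ± 0.12 (adjusted p = 0.0393), and this call was lost in 11 of 17 alternative fits, with adjusted p from 0.0108 to 0.274 over all 17; the blocked fit on replicate number gave -0.69 (adjusted p = 0.106). T286A minus empty vector was 0.33 ± 0.12 (95% interval 0.06 to 0.60), with an unadjusted p of 0.0215 that did not survive adjustment (adjusted p = 0.295).

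The 4 JUN probe sets were less alike than those of FOS. T286A minus wild type was positive in 4 of 4, from 0.13 to 0.97, and 1 was called over all probe sets. Wild type minus empty vector was negative in 3 of 4, from -0.65 to 0.06. The one called there was not the brightest but a dimmer set at 5.67, 5.77 and 5.87 with T286A and 5.38, 5.52 and 5.30 with wild type, against 6.18 and 5.92 in empty vector (difference -0.65, adjusted p = 0.0404 over probe sets). In that set the T286A arrays, too, lay below both empty vector arrays, unlike in the brightest. With the mean of all its probe sets, JUN differed by 0.46 between T286A and wild type (adjusted p = 0.0162) and by -0.37 between wild type and empty vector (adjusted p = 0.0469).

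JUNB, a JUN relative with weaker transactivation that can oppose JUN, was at 8.35, 8.13 and 8.08 with T286A and at 7.86, 7.83 and 8.10 with wild type, against 8.37 and 8.46 in empty vector. Every array of either construct lay below both empty vector arrays, and the constructs overlapped. The differences from empty vector were -0.23 ± 0.11 with T286A (adjusted p = 0.464) and -0.49 ± 0.11 with wild type (adjusted p = 0.0804). The wild-type difference passed when only genes at or above the median level were tested (adjusted p = 0.0322) and with an intensity trend in the variance (adjusted p = 0.0175). JUND, the JUN relative with the most constant expression in resting cells, averaged 7.16 ± 0.098 with T286A and 7.0 ± 0.26 with wild type (SD, n = 3 each), against 7.04 ± 0.16 in empty vector. Wild-type replicate 2 was its lowest array at 6.70, with the other wild-type arrays at 7.14 and 7.15. JUND had 1 probe set, as had JUNB, so no second reading was had for either.

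EGR1, an early zinc finger factor of antigen receptor signalling, was at 10.21, 10.30 and 10.33 with T286A and at 9.15, 9.26 and 9.42 with wild type, against 10.40 and 10.44 in empty vector. In this brightest probe set no arrays overlapped between any groups, and the T286A arrays sat just under the empty vector ones. Wild type differed from empty vector by -1.15 ± 0.090, or 2.21-fold lower (adjusted p = 0.00156), and T286A from wild type by 1.00 ± 0.081, or 2.00-fold higher (adjusted p = 0.00149). T286A minus empty vector was -0.14 ± 0.090 (95% interval -0.35 to 0.06, adjusted p = 0.6), an interval that does not reach the wild-type difference. Both called differences passed in 17 of 17 alternative fits.

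The 6 EGR1 probe sets shared their direction in T286A against wild type and in wild type against empty vector. T286A minus wild type was positive in 6 of 6 probe sets, from 0.67 to 1.25, and 4 were called. Wild type minus empty vector was negative in 6 of 6, from -1.38 to -0.54, and 4 were called. T286A minus empty vector was negative in 5 and positive in 1, from -0.38 to 0.18, and 0 were called. In the second brightest the T286A arrays, at 9.10, 9.30 and 9.42, overlapped those of empty vector at 9.37 and 9.40. The 2 probe sets next in brightness had differences of 1.18 and 1.25 between T286A and wild type, above that of the brightest. EGR3, an EGR1 relative with a similar DNA-binding domain, averaged 5.19 ± 0.25 with T286A and 5.12 ± 0.049 with wild type, against 5.45 ± 0.38 in empty vector. Its 2 empty vector arrays, at 5.72 and 5.18, were farther apart than the means of the groups, and 4 of 4 of its probe sets were not called in any comparison.

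**Figure D2:**
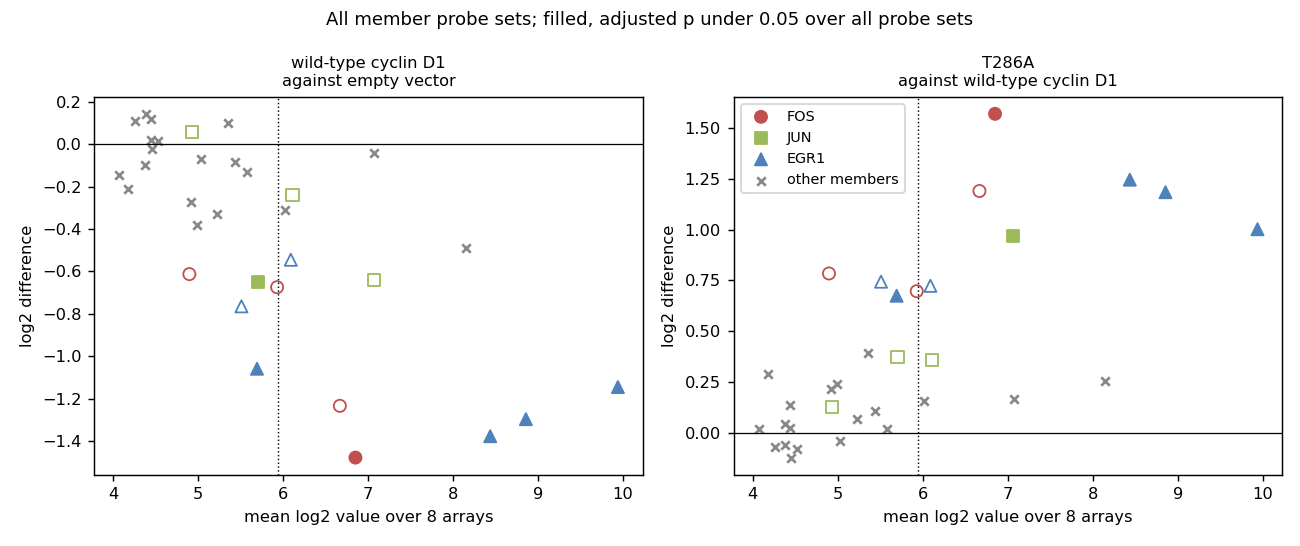
Log2 difference of each of the 33 member probe sets (vertical axis) against its mean log2 value over the 8 arrays (horizontal axis), with wild type set against empty vector on the left and T286A set against wild type on the right; filled symbols were called over all probe sets, crosses are the 6 genes not called, and the dotted line is the median of all genes. FOS and EGR1 probe sets lie on 1 side of 0 throughout, and most crosses sit at low mean values near 0.

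Counted over the family, 3 of 9 genes were called lower with wild type than with empty vector, where 1.14% of all genes were called lower, and 0 were called higher, against 0.603%. At an unadjusted limma p under 0.05 it was 5 of 9, each lower, where 13.5% of all genes passed in either direction. The arrays of 6 of 9 genes lay wholly below those of empty vector, against 15.3% of all genes. The median difference was -0.33, against 0.00 over all genes (0.0016), and 9 of 9 differences were negative, from -1.48 to -0.04, by the brightest probe sets. With 1 array left out, JUN lost its call in 7 of 8 fits and EGR1 in 0 of 8. FOS lost its call in 2 of 8, those without an empty vector replicate. The count was 2 without wild-type replicate 2. The family and the lists below were chosen with earlier results of these data known, so the shares of all genes are no test of these counts.

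For T286A against wild type, 3 of 9 genes were called higher, where 0.598% of all genes were, and 0 were called lower, against 0.389%. The arrays of 4 of 9 genes lay wholly above the wild-type ones (FOS, FOSL1, JUN and EGR1), against 9.94% of all genes. The median difference was 0.16 and 9 of 9 were positive, from 0.02 to 1.57. The wild-type arrays are those already compared with empty vector, so these signs and calls are not independent of the ones given there. FOS, JUN and EGR1 were each called without wild-type replicate 2 (1.64, 0.96 and 0.99) and without any other single array.

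For T286A against empty vector, limma called 0 of 9 genes, where 0.532% of all genes were called in either direction, and 1 of 9, JUN, had an unadjusted p under 0.05, as had 12.1% of all genes. By the brightest probe sets, the T286A arrays lay wholly below empty vector for 2 of 9 genes, JUNB and EGR1, against 16.7% of all genes. The differences ran from -0.26 for EGR3 to 0.33 for JUN, with a median of -0.11, and 5 were negative. This comparison shares its empty vector arrays with that of wild type, and the direct test of the constructs is the one given above. For both constructs together against empty vector, 1 of 9 genes was called lower, EGR1 at -0.64 ± 0.081 (adjusted p = 0.0144), where 0.697% of all genes were called lower. That mean covers unequal values of the 2 constructs, and the call was lost without either empty vector replicate (adjusted p = 0.15 and 0.193). FOS was at -0.69 ± 0.15 there (adjusted p = 0.0796).

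**Figure D3:**
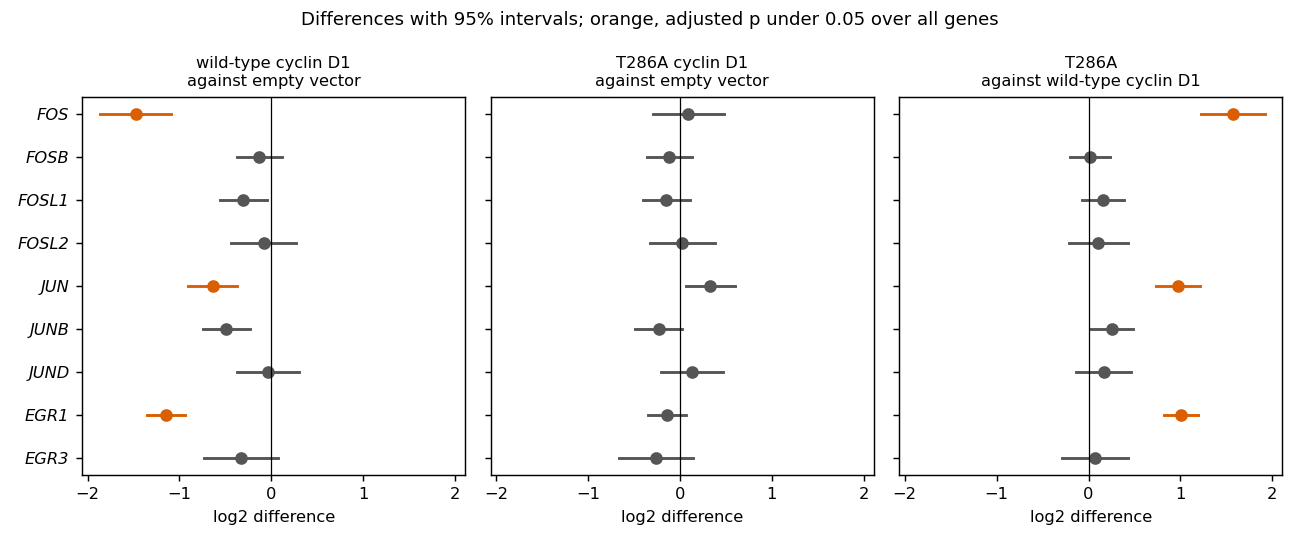
Log2 differences of the 9 genes with 95% intervals from limma, in 3 panels that set wild type, then T286A, against empty vector, and last T286A against wild type; orange marks an adjusted p under 0.05 over all genes. FOS, JUN and EGR1 are orange in the first and the last panel, at -1.48, -0.64 and -1.15 and at 1.57, 0.97 and 1.00, and no gene is orange in the middle one.

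Profiles over the arrays were set side by side by the root mean square (RMS) difference of centred values, each gene minus its own mean over the 8 arrays. JUN and EGR1 differed by an RMS of 0.24, FOS and EGR1 by 0.34 and FOS and JUN by 0.40, where FOS, JUN and EGR1 themselves varied around their means with an RMS of 0.76, 0.44 and 0.52. Among all genes, EGR1 was nearest to the chemokine gene CCL22 (RMS 0.082), the aldolase gene ALDOC (0.087), the cholesterol transporter gene ABCG1 (0.12), the autotaxin gene ENPP2 (0.14) and the prolactin gene PRL (0.14). CCL22 was at 10.28, 10.36 and 10.32 with T286A and at 9.44, 9.34 and 9.47 with wild type, against 10.54 and 10.56 in empty vector. JUN was nearest to FBLN5, DDX60, TUBA1A, AK4 and PIK3R5, with RMS from 0.11 to 0.15. FBLN5, for a matrix protein, was at 6.45, 6.23 and 6.41 with T286A and at 5.67, 5.35 and 5.46 with wild type, against 6.01 and 6.28 in empty vector. FOS was nearest to S100A4, PRL, ALDOC, OAS3 and GALM, but less closely, with RMS from 0.27 to 0.29. These genes were picked for likeness over 8 arrays that fall into 3 groups, so they carry no test.

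**Figure D4:**
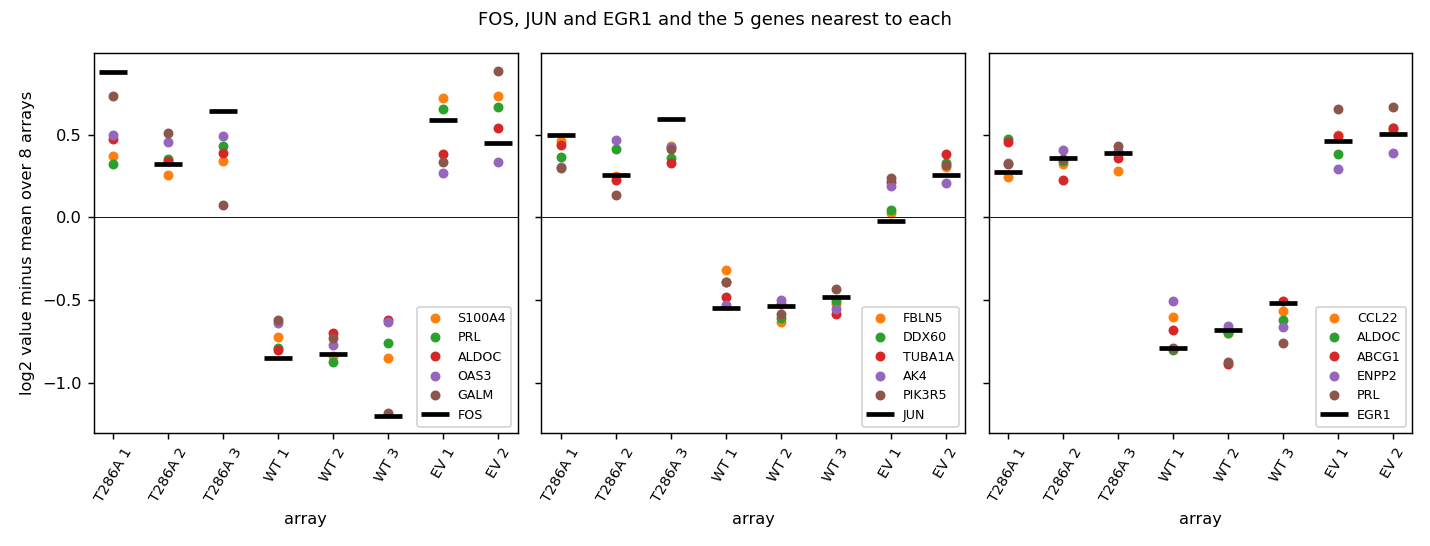
Log2 value minus the gene's mean over the 8 arrays (vertical axis) on each array (horizontal axis; WT, wild type; EV, empty vector), for FOS, JUN and EGR1 as black bars and the 5 genes nearest to each as points. The wild-type arrays lie below 0 for all genes shown, and the T286A arrays of FOS and JUN spread more than those of EGR1.

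The genes that act before the FOS, JUN and EGR genes showed few differences. Of 25 listed SRF, ETS and MAP kinase genes 18 were measured. Limma called 0 with wild type and 0 with T286A against empty vector. At an unadjusted p under 0.05 the counts were 1 each, against 13.5% and 12.1% of all genes. In T286A against wild type, where 0.389% of all genes were called lower, limma called 0 higher and 1 lower. That gene was ELK3, a ternary complex factor that acts at SRF sites and is known as a repressor until it is phosphorylated. ELK3 was at 6.66, 6.76 and 6.65 with T286A and at 7.64, 7.51 and 7.81 with wild type, against 7.22 and 7.27 in empty vector. The 3 groups did not overlap, and empty vector lay in between. T286A was lower than wild type by a difference of -0.96 ± 0.083 (adjusted p = 0.00218), called in 17 of 17 alternative fits, with -0.56 from the mean of its probe sets. Against empty vector ELK3 was at -0.55 ± 0.093 with T286A (adjusted p = 0.051) and at 0.41 ± 0.093 with wild type (adjusted p = 0.0804). SRF itself was at 0.15 ± 0.067 in T286A against wild type (adjusted p = 0.371), and the MAP kinase gene MAPK3 and the SRF cofactor gene MRTFA were at -0.25 and -0.19 in both constructs against empty vector (adjusted p = 0.607 and 0.4). The RAS gene HRAS was at 0.14 in T286A against empty vector (adjusted p = 0.432).

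Of 15 listed dimer partners and EGR co-repressors 13 were measured, and limma called 0 in any comparison. In T286A against wild type, 4 of them were higher and 1 lower by unadjusted p (under 0.05). The share of all genes at that cutoff is not given here for this comparison, so these counts cannot be set against it. ATF3, a stress-induced partner of JUN, was at 0.40 ± 0.093 in T286A against empty vector (adjusted p = 0.116). BATF3, a partner of JUN proteins in lymphocytes, was at 0.31 ± 0.069 and MAFG, a small MAF protein, at 0.40 ± 0.096 in T286A against wild type (adjusted p = 0.0993 and 0.125). NAB1, a co-repressor that binds EGR1, was at 0.30 ± 0.085 with wild type against empty vector (adjusted p = 0.147), and EGR4 at -0.38 ± 0.10 with T286A (adjusted p = 0.17).

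Of 24 listed other immediate early genes 23 were measured, and 2 were called lower with wild type than with empty vector and higher in T286A than in wild type: the MAP kinase phosphatase gene DUSP2 and IER2. Of all genes, 1.14% were called lower in the first of these comparisons and 0.598% higher in the second. DUSP2 was at 10.15, 10.33 and 10.27 with T286A and at 9.54, 9.68 and 9.67 with wild type, against 10.64 and 10.57 in empty vector, and its T286A arrays lay between the other groups. Its differences were 0.62 ± 0.073 in T286A against wild type (adjusted p = 0.00839) and -0.98 ± 0.082 in wild type against empty vector (adjusted p = 0.0018). IER2 was at 0.38 ± 0.062 in T286A against wild type (adjusted p = 0.0313) and at -0.42 ± 0.069 in wild type against empty vector (adjusted p = 0.0264). The 2 genes differed in how their calls held: DUSP2 was called in both comparisons without any single array (8 of 8), whereas IER2 was called in 0 of 8 such fits in T286A against wild type and in 1 of 8 in wild type against empty vector. The IER2 differences stayed between 0.36 and 0.42 and between -0.46 and -0.39 over 17 alternatives, with adjusted p up to 0.135 and 0.215. The list's medians were 0.06 in T286A against wild type and -0.12 in wild type against empty vector. In the latter comparison 9 of 23 were lower and 0 higher at an unadjusted limma p under 0.05, where 13.5% of all genes passed in either direction. The wild-type arrays of 13 of 23 lay wholly below those of empty vector, against 15.3% of all genes. The T286A arrays of 7 of 23 lay wholly above the wild-type ones, against 9.94% of all genes, and those of 1 wholly below. For both constructs together against empty vector 1 of 23 was called lower, where 0.697% of all genes were. It was DUSP2 at -0.67 ± 0.073 (adjusted p = 0.0102), called in 13 of 16 alternative fits. With T286A against empty vector limma called 0 of 23. At an unadjusted p under 0.05, 1 was higher and 7 lower, where 12.1% of all genes passed in either direction. Among the 7 was the pseudokinase gene TRIB1 at -0.41 ± 0.083 (adjusted p = 0.0823). The orphan receptor gene NR4A1, another early gene of antigen receptor signalling, was at 0.01 in T286A against wild type (adjusted p = 0.977) and was named after its values were seen.

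Of 22 listed genes reported as targets of AP-1 or EGR factors in other systems, 21 were measured, and limma called 0 in T286A against wild type (3 higher and 3 lower at an unadjusted p under 0.05). The share of all genes at that cutoff is again not given for this comparison. With wild type against empty vector 2 were lower, the adhesion receptor gene CD44 at -0.40 ± 0.064 and the chemokine gene CXCL8 at -0.50 ± 0.090, and 1 was higher, ID3, an inhibitor of helix-loop-helix factors, at 0.37 ± 0.066 (adjusted p = 0.0232, 0.0373 and 0.0336). Of all genes, 1.14% were called lower and 0.603% higher there. With 1 array left out, the call held in 2 of 8 fits for CD44, 1 of 8 for CXCL8 and 0 of 8 for ID3, and the highest adjusted p over all alternatives was 0.2, 0.27 and 0.236. With the replicate block 0 of the 3 were called. CXCL8 read 4.31, 4.23 and 4.41 with T286A and 4.33, 4.18 and 4.12 with wild type, against 4.65 and 4.76 in empty vector. These are below the median of all genes (5.94) and, with no detection call, not shown to be above background, and the mean of its probe sets gave -0.28 with no call. With T286A against empty vector limma called 0 of 21. At an unadjusted p under 0.05, 1 was higher and 3 lower, where 12.1% of all genes passed in either direction. CD44 was at 12.29, 12.31 and 12.36 with T286A and at 12.24, 12.19 and 12.24 with wild type, against 12.60 and 12.65 in empty vector, so both constructs lay below empty vector. For both constructs together 2 of 21 targets were called lower, where 0.697% of all genes were. They were CD44 at -0.35 ± 0.057 and CXCL8 at -0.44 ± 0.080 (adjusted p = 0.0299 and 0.0427). CD44 was called in 7 of 16 alternative fits, and CXCL8 in 4 of 15. The receptor gene PLAUR and the tissue factor gene F3 were at 0.37 and -0.27 in T286A against wild type (adjusted p = 0.265 and 0.229).

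Heat shock genes, which can respond to handling of cells as immediate early genes can, were read beside them. Of 8, HSPA1B was called, lower with wild type than with empty vector (-0.40 ± 0.073, adjusted p = 0.0371) and higher in T286A than in wild type (0.43 ± 0.065, adjusted p = 0.0234). Of all genes, 1.14% were called lower in the first of these comparisons and 0.598% higher in the second. With 1 array left out the HSPA1B calls held in 0 of 8 and 1 of 8 fits. It was at 9.57, 9.57 and 9.60 with T286A and at 9.24, 9.07 and 9.14 with wild type, against 9.52 and 9.59 in empty vector. HSPA1A, a near-identical gene that its probes may share, was at 0.35 in T286A against wild type (adjusted p = 0.281), and the other 6 lay between -0.08 and 0.12. The mean level of the 8 genes was 11.4 to 11.5 on the T286A arrays and 11.2 to 11.4 on the wild-type arrays, against 11.4 on both empty vector arrays. The part of handling in the differences of FOS, JUN and EGR1 was not tested.

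**Figure D5:**
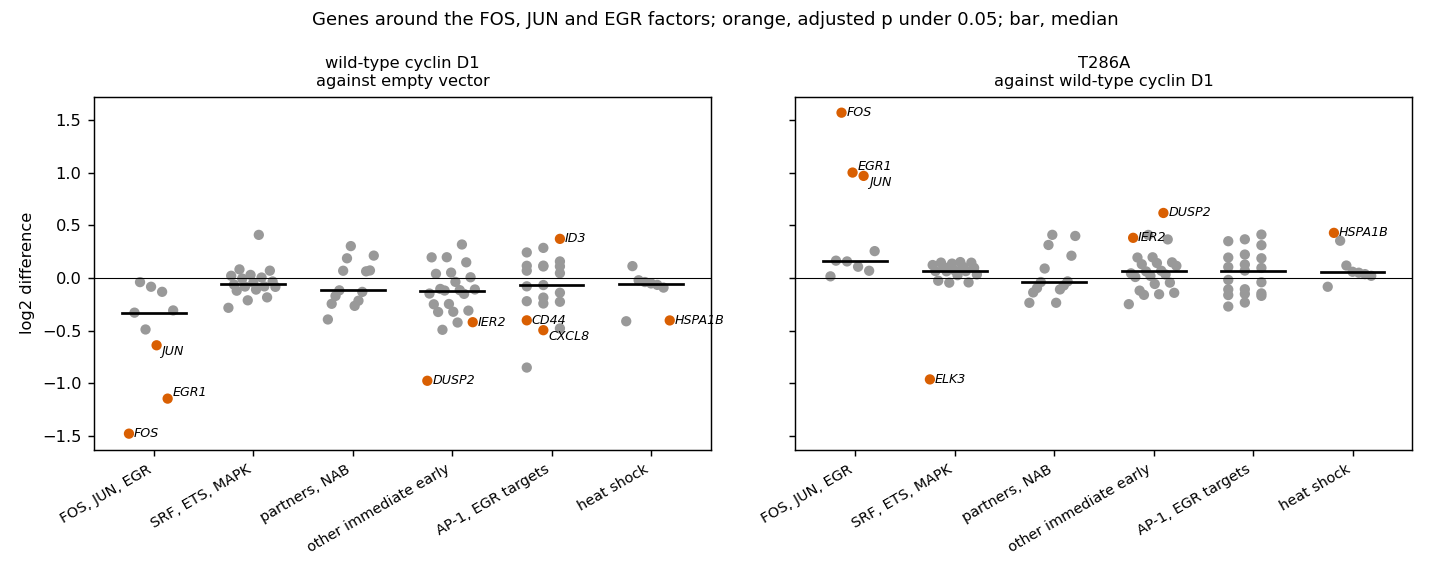
Log2 differences of every measured gene of 6 lists (points; orange, adjusted p under 0.05 over all genes; bar, list median) with wild type set against empty vector on the left and T286A set against wild type on the right. FOS, EGR1 and JUN lie outside the range of the other lists in the right panel, where ELK3 at -0.96 is the lowest point.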

How the data were processed

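RNA of 8 JVM13 samples was measured on 1 Affymetrix array each. Values were deposited on a log2 scale; the authors summarised them by RMA, with R 3.5.0 named in the submitters' processing notes. The method subtracts background, equalises the distributions of the arrays and summarises probe sets. The table held 48864 probe sets, with 10 control probe sets left out here, and 45220 were annotated to 1 gene. No scanner file, detection call or scan time was used; precision is set by how few arrays there are. Groups and replicate numbers came from the sample titles. No 2 arrays held identical values (0 pairs). The brightest probe set stood for each of 18231 genes. A mean per group was fitted over all arrays with lmFit and eBayes of limma 3.58.1 under R 4.3.3, which left 5 residual and 3.27 prior degrees of freedom and no intensity filter. The fit was also run on simulated data with independent noise and shifts planted in the wild-type group alone. That run does not address the origin of the replicates or a batch in these arrays. Members and gene lists were chosen with earlier results of these data known. All members are named. Each list contributes, per comparison, its called genes (at most 4, by size of difference) or otherwise at most 2 by unadjusted p; genes named outside this rule are SRF, NR4A1 and the heat shock genes, chosen after their values were seen. For each called member the 5 nearest profiles are named. Alternatives changed the probe set rule, filter, scaling, variance model, weights, samples and replicate block. Promoters came from RefSeq (GRCh38.p14) and were searched on both strands.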

Additional observations from a re-analysis of the deposited data

Results flagged for a closer look

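The effect of the constructs against empty vector differed between T286A and wild-type cyclin D1 for 3 genes by the direct limma test of T286A against wild type, with 3 of 3 T286A arrays above every wild-type array. The difference was 1.57 for FOS, 1.00 for EGR1 and 0.97 for JUN (adjusted p = 0.00403, 0.00149 and 0.00608). Of all genes, 0.598% were called higher in that test, and 9.94% had T286A arrays wholly above the wild-type ones.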

How the results depend on the processing

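Alternatives were 17 per comparison and 16 for both constructs against empty vector, but 16 and 15 for FOSB, FOSL2 and EGR3, which lie below the median level and drop out of the fit filtered on it. FOS, JUN and EGR1 were called in T286A against wild type in 17 of 17, with FOS from 1.06 to 1.72, EGR1 from 0.93 to 1.07 and JUN from 0.46 to 1.07. In wild type against empty vector EGR1 was called in 17 of 17, FOS in 15 and JUN in 6. Members called ran from 1 to 3 when 1 array was left out in wild type against empty vector, 3 to 3 in T286A against wild type, 0 to 0 in T286A against empty vector and 0 to 1 for both constructs; for the last they were 2 with genes at or above the median level only, 2 with an intensity trend, 2 with array weights and 0 with the replicate block.

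The sources used here do not say whether replicate numbers pair the samples. Same-numbered arrays deviated together with r from -0.069 to 0.117 (7 pairs), and others from -0.112 to 0.112 (14 pairs). This cannot settle pairing, because the 2 empty vector arrays deviate equally and oppositely from their mean, which mirrors their r values. Between wild type and T286A the same-numbered r were 0.029, 0.117 and 0.0074, and the others ran from -0.112 to 0.112. With the replicate block, calls over all genes were 71 in wild type and 3 in T286A against empty vector, 86 in T286A against wild type and 7 for both constructs, against 317, 97, 180 and 255 without it. The block gave -0.69 for JUN (adjusted p = 0.106) in wild type against empty vector and -0.69 for EGR1 (adjusted p = 0.0725) for both constructs. Testing only genes at or above the median level gave 629, 527, 381 and 624 calls, the trend 726, 618, 579 and 719, array weights 404, 317, 187 and 436, every probe set 208, 28, 139 and 124, only the groups compared 68, 4 and 128, housekeeping centring 295, 65, 172 and 204, and means over probe sets 406, 190, 212 and 353.

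Partners called in T286A against wild type were 1 with means over probe sets, the level filter or the trend, and 1 in T286A against empty vector with the filter. Other immediate early genes called for both constructs were 5 (filter), 7 (trend), 2 (weights), 0 (block) and 0 to 1 leaving out 1 array; in T286A against wild type 1 (every probe set, housekeeping centring, only the groups, block) and 1 to 1; in T286A against empty vector 3 (filter), 5 (trend) and 1 (weights); in wild type against empty vector 4 (filter), 8 (trend), 1 (only the groups, block) and 1 to 2. Targets called for both constructs were 0 (every probe set, block), 4 (trend) and 0 to 1; in T286A against empty vector 1 (means, filter, trend, weights); in wild type against empty vector 1 (every probe set), 0 (only the groups, block) and 0 to 1. Upstream genes called in T286A against empty vector were 1 (filter, quantile normalization, trend, weights) and 0 to 1; in wild type against empty vector 1 (filter, weights). The causes were not tested.

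Direction reversed in 25 of 591 recomputed values, with 0 called. FOSB in T286A against wild type was -0.022 (means), -0.010 (housekeeping), -0.042 (quantile) and -0.0092 (weights), and -0.065 to 0.088 leaving out 1 array; against empty vector wild type was at 0.0066 (means). FOSL1 in T286A against empty vector was 0.029 (means), and -0.31 to 0.0068 leaving out 1 array. FOSL2 was 0.0021 (quantile) for both constructs, with -0.17 to 0.11 leaving out 1 array; -0.022 (housekeeping), -0.015 (block) and -0.12 to 0.17 in T286A against empty vector; -0.026 to 0.24 in T286A against wild type; and -0.23 to 0.061 in wild type against empty vector. JUND in wild type against empty vector was 0.0053 (quantile), 0.022 (weights) and -0.15 to 0.11, and -0.070 to 0.16 for both constructs. Leaving out 1 array, EGR3 ran from -0.073 to 0.15 in T286A against wild type and from -0.53 to 0.010 in T286A against empty vector, and FOS from -0.040 to 0.24 in T286A against empty vector. With 2 empty vector arrays, leaving out 1 leaves a lone array assumed to vary like the other groups.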
